A study of Mus musculus with 6 samples.

Results

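Blood endothelial identity and junction genes were examined in whole mouse ovaries as a set of 9 named genes: Pecam1, Cdh5, Esam, Cldn5, Emcn, Plvap, Egfl7, Sox17 and Sox18. They were found by symbol in the deposited table of 16454 genes, where 8 of the 9 had a row, and Cldn5 was not analysed here. All ovaries came from CD1 mice at postnatal day 21 in generation 3. The control lineage (3 ovaries) descended from founding dams given the vehicle, a corn oil stripped of tocopherol. The DEHP lineage (3 ovaries) descended from founding dams given di(2-ethylhexyl) phthalate (DEHP), a plasticizer, at 20 µg/kg/day. The animals themselves were not dosed, and the comparison asks whether ovarian expression of the set differed with the dosing of their ancestors. Litters and numbers of founding dams are not in the labels, so a p-value below reflects how far these 6 ovaries vary, which need not be how far founders vary.

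Blood vessels are lined by endothelial cells, which hold together through adherens and tight junctions and carry a surface coat of adhesion proteins and mucins. In the ovary, capillaries run through the stroma and the theca layer around each follicle, while the granulosa layer inside stays free of vessels until ovulation. Transcription factors of the SOXF group (Sox7, Sox17 and Sox18) and of the ETS family (such as Erg and Fli1) maintain this cell identity.

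None of the 8 measured genes passed the threshold for a difference between the 2 lineages. Values are read counts scaled to the library total (CPM), from which the authors had already removed a surrogate variable, an estimated nuisance direction across the libraries. The log2 difference between lineages (DEHP minus control) ran from -0.128 for Cdh5 to 0.266 for Plvap, with 4 genes higher and 4 lower on average. By limma with Benjamini-Hochberg adjustment over all genes, 0 of the 8 passed an adjusted p of 0.05 in either direction, where 0.0425% of all genes did (7 genes). An unadjusted p under 0.05 was reached by 0 of the 8, against 8.78% of all genes. In each of the 8 genes the 2 lineages overlapped, while they did not overlap in 22.9% of all genes. The median log2 difference was -0.009 over the 8 genes and -0.012 over all genes. In a whole ovary, fewer endothelial cells and less RNA per cell cannot be told apart.

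Facts of the libraries that bear on these values are few. The summed CPM ran from 979868 to 1026735 per library, and the depth in reads is unknown. The removed direction had its largest weights, -0.60 and 0.75, on DEHP-lineage replicates 1 and 3. These 2 ovaries therefore resemble each other more than they would have before the removal. With these 2 drawn together, DEHP replicate 2 tends to stand apart within its lineage. Where several genes or lists peak or dip in DEHP replicate 2 below, the removal bears on the match. Markers of ovarian cells were present, with 8 of 8 granulosa, 7 of 7 theca and interstitial and 12 of 12 oocyte markers in the table. Of the other pan-endothelial genes 23 of 24 were in the table, the lowest at a mean log2 CPM of 2.57.

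Among the junction genes, Pecam1 encodes CD31, an adhesion receptor at the borders between endothelial cells that platelets and leukocytes also carry. Pecam1 (Entrez 18613, GRCm38.p6 chromosome 11, 106654213 to 106715281) was at 63.7, 69.5 and 62.4 CPM in control replicates 1, 2 and 3. In the DEHP lineage it was at 54.9, 69.1 and 57.1 CPM. DEHP replicate 2 lay within the control values, and the other 2 DEHP ovaries lay below all of them. The means were 65.2 ± 3.78 and 60.4 ± 7.65 CPM (SD, n = 3 each), a log2 difference of -0.117 (SE 0.107, 95% interval -0.368 to 0.135, limma adjusted p 0.787). It was -0.052 without DEHP replicate 1 and -0.218 without DEHP replicate 2.

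Cdh5 encodes VE-cadherin, the main cadherin of endothelial adherens junctions. Cdh5 (Entrez 12562, chromosome 8, 104101613 to 104144504) had the highest CPM of the set, with 108, 126 and 95.2 in the control ovaries and 94.9, 108 and 97.2 in the DEHP ovaries. Control replicate 2 stood highest, and control replicate 3 lay beside the lower DEHP values. Its means were 110 ± 15.7 and 99.9 ± 6.84 CPM (SD, n = 3 each). The log2 difference was -0.128 (SE 0.116, interval -0.399 to 0.143, limma adjusted p 0.784), and it was -0.022 without control replicate 2 and -0.226 without control replicate 3. An antisense gene, Gm29682, overlaps 4249 bases of Cdh5 and was not in the table, and whether the counting used the strand is not stated.

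Esam encodes an immunoglobulin-family adhesion molecule of endothelial tight junctions that is also found on platelets. Esam (Entrez 69524, chromosome 9, 37528089 to 37538319) was at 22.0, 22.0 and 19.4 CPM in the control ovaries and at 18.3, 23.0 and 19.5 CPM in the DEHP ovaries. The highest and the lowest of the 6 values were both in the DEHP lineage. The log2 difference was -0.063 (SE 0.127, interval -0.361 to 0.235, limma adjusted p 0.91), and it was 0.007 without DEHP replicate 1. Of 8 platelet and megakaryocyte markers, Itga2b alone was in the table, at 0.886 to 1.25 CPM in the control lineage and 1.75 to 2.4 CPM in the DEHP lineage. That is a log2 difference of 0.92 with a limma adjusted p of 0.491, and its part in the Pecam1 and Esam values was not tested.

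Of the surface genes, Emcn encodes endomucin, a sialomucin of capillary and venous endothelium. Emcn (Entrez 59308, chromosome 3, 137341062 to 137431069) was at 19.4, 19.5 and 23.3 CPM in the control ovaries and at 20.4, 23.9 and 20.6 CPM in the DEHP ovaries. In each lineage 2 ovaries lay close together and 1 stood higher. In the DEHP lineage the close ones were replicates 1 and 3, which the removed direction ties together. The log2 difference was 0.061 (SE 0.126, interval -0.234 to 0.356, limma adjusted p 0.911), and it was -0.013 without DEHP replicate 2.

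Plvap encodes the protein that forms the diaphragms of endothelial fenestrae and caveolae. Plvap (Entrez 84094, chromosome 8, 71497753 to 71511806) was at 13.2, 10.9 and 8.52 CPM in the control ovaries and at 12.8, 12.1 and 13.7 CPM in the DEHP ovaries. The DEHP values lay close together, and all 3 were above control replicates 2 and 3, but control replicate 1 lay among them. The means were 10.9 ± 2.33 and 12.9 ± 0.792 CPM (SD, n = 3 each). The log2 difference of 0.266 was the largest of the set (SE 0.183, interval -0.164 to 0.695, limma adjusted p 0.713), and 24.6% of all genes had a larger one in size. Without control replicate 3, the lowest of the 6, it was 0.102, and without control replicate 1 it was 0.417. The opposite-strand gene Gtpbp3 overlaps 1819 bases of the Plvap locus and had a log2 difference of 0.002.

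Egfl7 encodes a secreted protein of the endothelial matrix, and an intron of the gene carries the endothelial miR-126. Egfl7 (Entrez 353156, chromosome 2, 26581083 to 26592682) was the steadiest of the set, at 31.5, 28.6 and 29.6 CPM in the control ovaries and 28.3, 32.8 and 29.7 CPM in the DEHP ovaries. The highest and the lowest values were again DEHP replicates 2 and 1, an outcome that the removal of the surrogate variable favours. The means were 29.9 ± 1.49 and 30.3 ± 2.3 CPM (SD, n = 3 each). The log2 difference was 0.018 (SE 0.0987, interval -0.213 to 0.249, limma adjusted p 0.967), and it was -0.014 without control replicate 2 and -0.041 without DEHP replicate 2. Of its words of 31 bases, 7.52% also occur in another annotated gene, mostly in Gm20532, which overlaps it on the same strand.

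The regulatory sequence of these genes is shown where RefSeq's GRCm38.p6 promoter table held it, which was for 2 of the 8 genes, Emcn with 1 start site and Egfl7 with 3. Each window runs from 250 bases before a start to 50 after it, on the plus strand, 5′ to 3′. Capitals mark the letters GGAAG, which form a core of many sites for ETS factors, and the letters ACAAT, which form a core of many sites for SOX factors. Both were searched on both strands. The single Emcn window and 2 of the Egfl7 windows, one with matches and one without, are printed to set the letters of 2 endothelial genes side by side.
Emcn, chr3:137340828-137341127: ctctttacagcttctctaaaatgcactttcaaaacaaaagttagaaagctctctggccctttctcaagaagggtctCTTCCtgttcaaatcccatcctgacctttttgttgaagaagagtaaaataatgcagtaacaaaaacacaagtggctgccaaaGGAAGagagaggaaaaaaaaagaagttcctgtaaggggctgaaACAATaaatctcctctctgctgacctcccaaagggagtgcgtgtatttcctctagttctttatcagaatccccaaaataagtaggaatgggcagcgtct
Egfl7 start 2, chr2:26583615-26583914: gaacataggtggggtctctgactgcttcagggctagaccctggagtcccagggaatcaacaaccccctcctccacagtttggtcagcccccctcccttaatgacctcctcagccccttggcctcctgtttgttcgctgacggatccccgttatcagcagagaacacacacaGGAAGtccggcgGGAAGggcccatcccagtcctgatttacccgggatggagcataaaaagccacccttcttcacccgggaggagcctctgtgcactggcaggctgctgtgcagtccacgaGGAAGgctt
Egfl7 start 3, chr2:26586386-26586685: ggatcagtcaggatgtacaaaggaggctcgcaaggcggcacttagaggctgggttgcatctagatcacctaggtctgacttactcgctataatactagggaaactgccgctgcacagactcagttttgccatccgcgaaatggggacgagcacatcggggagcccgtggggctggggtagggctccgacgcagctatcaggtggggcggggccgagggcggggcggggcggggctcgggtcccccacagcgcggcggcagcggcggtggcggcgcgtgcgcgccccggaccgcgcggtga

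The Emcn window held 2 matches to GGAAG and 1 to ACAAT, none of which overlapped. At Egfl7, the window of start 2 held 3 matches to GGAAG, that of start 1 held 4 and that of start 3 held 0, while ACAAT had 0 matches in all 3. GGAAG occurs in 71.4% and ACAAT in 31% of all 32851 promoter windows of this length, so a match here is common, and it is a description of letters and not of binding. The table values are per gene and do not say which start was used. The mature miRNA from the Egfl7 locus lies at chr2:26591402-26591423 on the plus strand, within the gene, and is printed with its seed (bases 2 to 8) in capitals.
mmu-miR-126a-3p: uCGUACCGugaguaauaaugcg

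The libraries held polyadenylated RNA, and the miRNA itself was not analysed here.

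Of the transcription factors, Sox17 is a SOXF factor of arterial endothelium that is also made in the epithelium of the oviduct and uterus. Sox17 (Entrez 20671, chromosome 1, 4490928 to 4497426) was at 9.67, 7.68 and 8.19 CPM in the control ovaries and at 8.37, 12.4 and 9.51 CPM in the DEHP ovaries. DEHP replicate 2 stood highest, and the other 2 DEHP ovaries lay within the control values. The means were 8.51 ± 1.03 and 10.1 ± 2.09 CPM (SD, n = 3 each). The log2 difference was 0.234 (SE 0.195, interval -0.223 to 0.691, limma adjusted p 0.761), and it was 0.074 without DEHP replicate 2 and 0.36 without DEHP replicate 1. The summed level of the oviduct epithelium markers, 5 of 6 of which were in the table, was highest in the same ovary. It was 16.7, 11.3 and 13.4 CPM in the control ovaries and 16.3, 26.2 and 18.8 CPM in the DEHP ovaries, and its part in the Sox17 values was not tested. Of the words of Sox17, 15.7% also occur in another annotated gene, mostly in the opposite-strand transcript Gm37587, which was not in the table.

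Sox18, the other SOXF member of the set, acts in the development of blood and lymphatic vessels. Sox18 (Entrez 20672, chromosome 2, 181669837 to 181671640) was at 48.3, 47.7 and 62.8 CPM in the control ovaries and at 55.8, 46.4 and 51.9 CPM in the DEHP ovaries. Control replicate 3 stood highest and DEHP replicate 2 lowest. The log2 difference was -0.036 (SE 0.132, interval -0.344 to 0.273, limma adjusted p 0.949). It was 0.094 without control replicate 3 and 0.036 without DEHP replicate 2. The remaining SOXF gene, Sox7, is no member, and its limma adjusted p was 0.989.

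**Figure D1:**
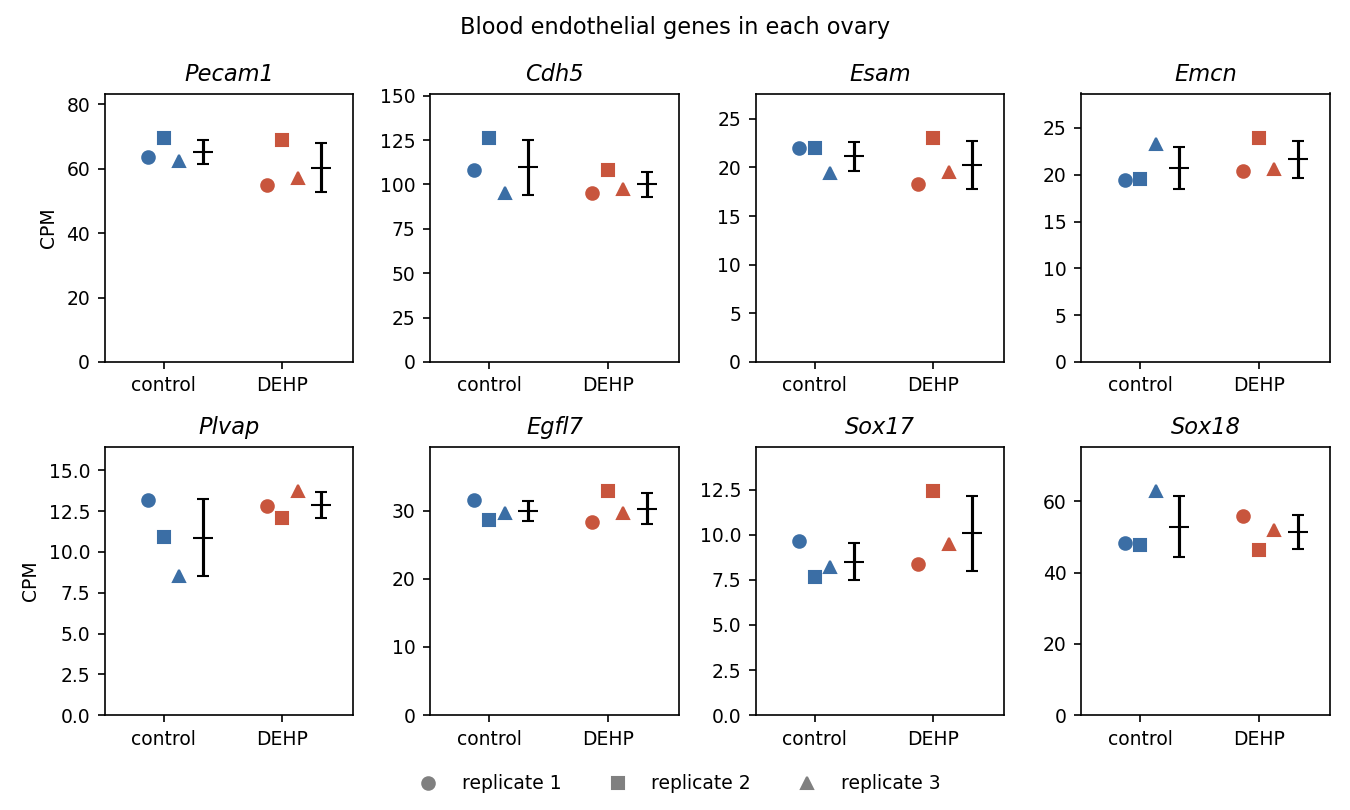
CPM (vertical axes, from 0) of the 8 measured genes in the control and DEHP lineages, with 1 point per ovary, the shape giving the replicate and the black bar the mean ± SD (n = 3 each). The lineages overlap in every panel, and DEHP replicate 2 (square) is the highest of the 6 ovaries for Esam, Emcn, Egfl7 and Sox17. The removed direction ties DEHP replicates 1 and 3 together, which tends to set replicate 2 apart.

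Levels of different genes were compared per kilobase of exon (the union of the gene's exons in GENCODE M21), as the mean log2 CPM per kb over the 6 ovaries. Sox18 (5.0) and Cdh5 (4.63) were highest, with ranges over the ovaries that overlapped (4.84 to 5.28 and 4.5 to 4.91). Pecam1 followed at 3.33, and its range lay 1.02 below that of Cdh5. Egfl7 (3.07), Esam (2.85), Plvap (2.56) and Emcn (1.96) came next. Pecam1 and these 4 formed a run in which the ranges of all neighbours overlapped, by 0.03 to 0.11. Sox17 was lowest at 0.94, and its range lay 0.47 below that of Emcn. The exon set behind the authors' counts is not known, so the order and its gaps hold only for these lengths. On the log2 CPM per kb scale, the order from highest to lowest spanned far more than the difference between lineages of any gene.

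**Figure D2:**
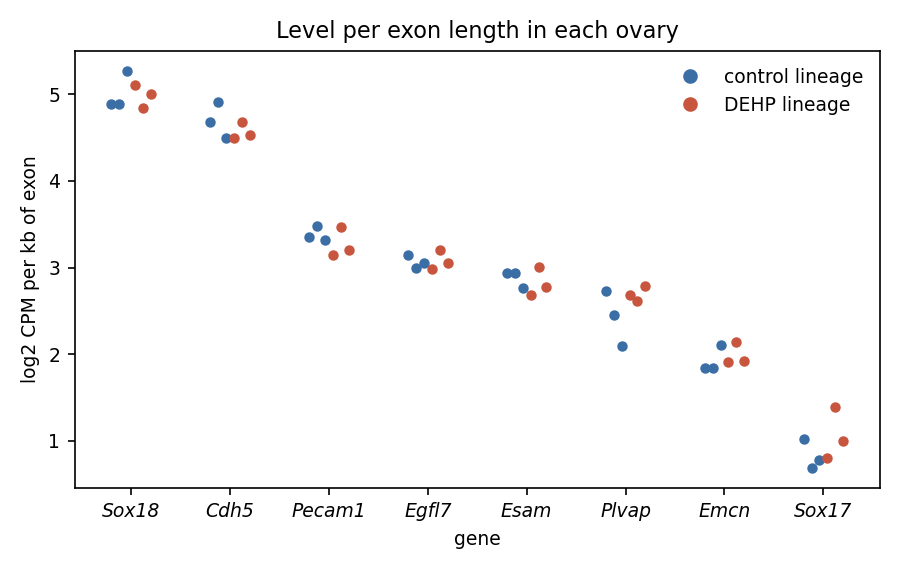
Log2 CPM per kb of exon (vertical axis) in each of the 6 ovaries, with genes ordered by their mean and colours giving the lineage. With the GENCODE M21 exon lengths, the genes fall into 3 bands that do not overlap. Sox18 and Cdh5 are at the top and Sox17 at the bottom, and the colours mix within each gene.

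The genes did not move as one block among the ovaries. Relative to the mean of the 6 ovaries, DEHP replicate 2 was above average for 7 of the 8 genes, all but Sox18, with a median of 0.136 on the log2 scale. DEHP replicate 1 was below average for 6 of the 8, all but Plvap and Sox18, with a median of -0.11, and was the lowest ovary for 4. Medians of the other ovaries lay between -0.09 (control replicate 2) and 0.057 (control replicate 1). The spread within the DEHP lineage was thus as wide as that over both lineages together. Over the 6 ovaries, the correlation of a gene with the mean standardized profile of the other 7 was 0.83 for Egfl7, 0.79 for Esam, 0.70 for Sox17 and 0.59 for Pecam1. It was 0.20 for Emcn, 0.15 for Cdh5, -0.18 for Plvap and -0.78 for Sox18. These values are given as a description, since all points share their libraries and the removed direction ties DEHP replicates 1 and 3 together. That tie also tends to set DEHP replicate 2 apart. Within its lineage, DEHP replicate 3 was the highest ovary for 1 of the 8 genes and the lowest for 0.

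**Figure D3:**
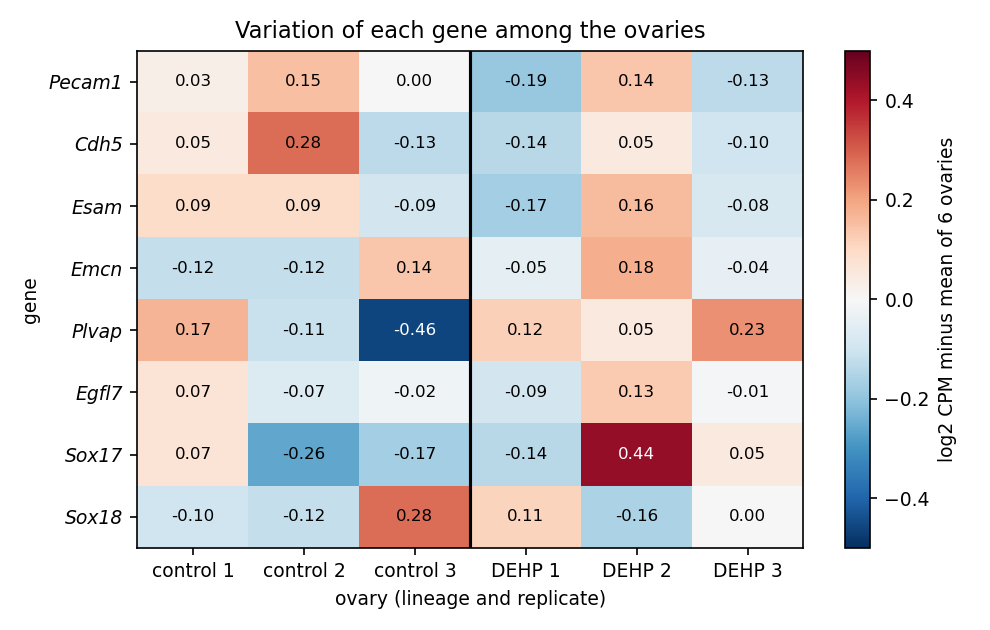
Log2 CPM of each gene (rows) minus its mean over the 6 ovaries, by ovary (columns), in colour and as a number. DEHP replicate 2, which the removed direction tends to set apart in its lineage, is positive for every gene but Sox18. The 2 largest deviations are -0.46 for Plvap in control replicate 3 and 0.44 for Sox17 in DEHP replicate 2.

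Adipocyte markers, 7 of 7 of which were in the table, varied widely between ovaries of 1 lineage. Set against the average of all 6 ovaries, their median was 2.355 in DEHP replicate 2 and 1.191 in control replicate 1, the 2 ovaries with the highest medians of the endothelial set. It was lowest, at -1.74, in control replicate 3, where the median of the set was -0.057. The marker median was -1.406 in DEHP replicate 1, where the set was at -0.11. In control replicate 2 the markers were at -0.166 and the set at -0.09, and in DEHP replicate 3 at -0.155 and -0.027. The summed level of the markers ran from 69.9 to 354 CPM in the control lineage and from 70.5 to 825 CPM in the DEHP lineage. Plin1 and Lep were highest in control replicate 1, and the other markers in DEHP replicate 2. Fat tissue has its own capillaries, and the part of adherent fat in the endothelial values was not tested. Leukocyte markers, 6 of 7 of which were in the table, summed to 5.85 to 28.9 CPM in the control lineage and 18.4 to 20.4 CPM in the DEHP lineage. The lowest leukocyte sum was in control replicate 2, and the part of leukocytes in the Pecam1 values was not tested.

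The 5 genes whose profile over the 6 ovaries was most like the mean standardized profile of the set, among 13055 genes with a mean log2 CPM of at least 1, were Anapc2, Lgals12, C030006K11Rik, Cracr2b and Hacd4. Their Pearson correlations were 0.995, 0.992, 0.992, 0.99 and 0.99 over 6 ovaries. They were picked as the highest of 13055 values, so their height is no test of a link to the set. Lgals12 encodes a galectin of fat cells, and Anapc2 a subunit of the anaphase-promoting complex. Lgals12 was at a log2 CPM of 2.62, 1.99 and 1.96 in the control ovaries and 1.27, 3.45 and 1.87 in the DEHP ovaries. Anapc2, the closest match, was at 6.85, 6.82 and 6.81 in the control ovaries and 6.74, 6.95 and 6.79 in the DEHP ovaries. No gene of the other endothelial lists was among the 5.

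The precision of the comparison is given by the 95% intervals. All 8 lay within 1 log2 unit of 0, the lowest bound being -0.399 (Cdh5) and the highest 0.695 (Plvap). In folds of DEHP over control, the interval for Egfl7 was 0.863 to 1.19, that for Pecam1 0.775 to 1.1 and that for Cdh5 0.758 to 1.1. Plvap and Sox17, the 2 genes with the lowest CPM, had the widest, at 0.893 to 1.62 and 0.857 to 1.61. All genes of the set but Egfl7 varied more within lineages than most genes at a like level (within 0.5 log2 CPM). The share of such genes with a larger residual SD had a median of 24.4% over the set, and was 60.8% for Egfl7. In the authors' deposited table the log2 fold changes of the 8 genes ran from -0.14 (Cdh5) to 0.26 (Sox17), with adjusted p values from 0.906 to 0.985.

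**Figure D4:**
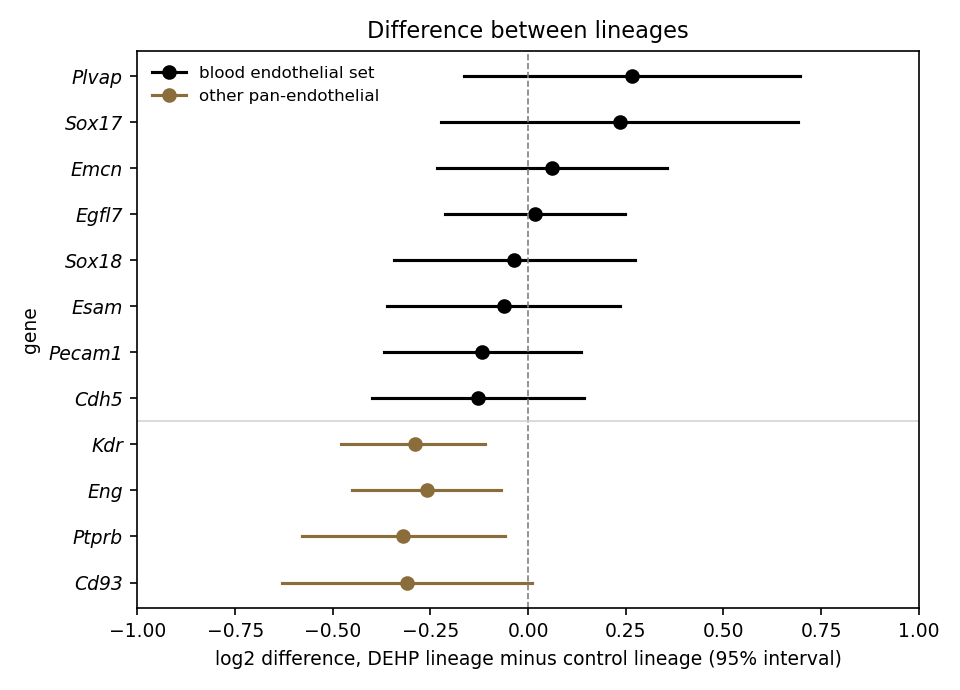
Log2 difference between lineages (horizontal axis, DEHP minus control) with its 95% interval for the 8 genes of the set, and below the line for the 4 other pan-endothelial genes with the smallest p. All 8 intervals of the set include 0, while those of Kdr, Eng and Ptprb lie below 0 before adjustment over all genes.

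Other pan-endothelial genes, a list of 24 with 23 in the table, had 0 called in either direction and a median log2 difference of -0.158. Their means were higher for 7 and lower for 16, where 8734 of all 16454 genes had lower means. An unadjusted p under 0.05 was reached by 3 of the 23 and the lineages did not overlap in 4, 3 lower and 1 higher, beside 8.78% and 22.9% of all genes. Kdr, the main VEGF receptor, was at 64.2, 65.6 and 65.8 CPM in the control ovaries and at 50.8, 57.4 and 51.8 CPM in the DEHP ovaries. That is a log2 difference of -0.29 (SE 0.0794, limma adjusted p 0.455). Eng, a coreceptor for BMP ligands, was at -0.26 (adjusted p 0.491), and Ptprb, a phosphatase that acts on VE-cadherin and the Tie2 receptor, was at -0.32 (adjusted p 0.499). Cd93, a lectin-like surface receptor, was at -0.31 with overlapping lineages. Whether the set and these genes differ in their change was not tested. With each ovary set to the same mean of the 23 genes, an alternative chosen after the data were seen, 0 of the 8 genes of the set were called, and their median log2 difference was 0.072.

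Lists of endothelial subtypes also had 0 calls. In whole ovaries, how much of each list's level comes from endothelial cells is not known. Of 9 arterial genes, 4 had higher and 5 lower means, with a median of -0.126. The lineages did not overlap in 3 of the 9, beside 22.9% of all genes. Acvrl1, a BMP receptor of arteries, had a log2 difference of -0.25, the Notch ligand gene Jag1 one of -0.19 and the Notch target Hey1 one of -0.30, all 3 with lineages that did not overlap (limma adjusted p 0.541, 0.558 and 0.595). The 7 measured venous and activation genes had a median of -0.134, and Vcam1, a leukocyte adhesion molecule, was at 0.43 (adjusted p 0.493). The 9 capillary and tip cell genes had a median of 0.166. Among these, Esm1, a proteoglycan gene of sprouting vessels, was at 0.592 to 0.747 CPM in the control lineage and 1.02 to 1.58 CPM in the DEHP lineage (adjusted p 0.491), and Rgcc, a cell cycle regulator, had a log2 difference of 0.50 (adjusted p 0.564).

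Of the endothelial transcription factors outside the set, 15 of 17 were in the table, with 0 called and a median log2 difference of -0.017. Tal1 was at 2.82, 3.27 and 3.23 CPM in the control ovaries and at 7.04, 3.57 and 5.92 CPM in the DEHP ovaries (limma adjusted p 0.529). Its partner Lmo2 had a log2 difference of 0.41 (adjusted p 0.558). Both also act in blood cell formation. Erythroid markers, 5 of 7 of which were in the table, summed to 65.6, 77.3 and 127 CPM in the control ovaries and 290, 115 and 211 CPM in the DEHP ovaries. They ranked the 3 DEHP ovaries as Tal1 did, where the removed direction ties replicates 1 and 3 together. Control replicate 3 lay above DEHP replicate 2 in this sum but below it in Tal1. The part of erythroid cells in the Tal1 and Lmo2 values was not tested. The ETS factor genes Erg and Fli1 had adjusted p values of 0.92 and 0.773.

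Junction partners and regulators, all 21 of them in the table, had 0 called, 10 higher and 11 lower means and a median of -0.005. The lineages did not overlap for 3 higher and 2 lower genes of the 21, near the 22.9% of all genes. Nectin2, an adhesion molecule of adherens junctions, had a log2 difference of -0.29 (limma adjusted p 0.491) and Afdn, the scaffold that binds nectins, one of 0.23 (adjusted p 0.569), both without overlap between lineages. Cgnl1 encodes a cytoplasmic junction protein and Jam2 a junctional adhesion molecule, and these were at -0.19, also without overlap, and at -0.18, with overlap (adjusted p 0.58 and 0.662). Many of these genes are also expressed by epithelial and granulosa cells. In the claudin family, 11 of the 18 genes listed beside Cldn5 were in the table, with 0 called and a median of 0.013. Cldn12 had the smallest p of these, at a log2 difference of -0.21 (adjusted p 0.565).

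Lists of lymphatic endothelial and of smooth muscle and pericyte markers had medians further from 0 than the blood endothelial set, also with 0 calls. All 5 measured lymphatic endothelial markers of 7 had higher means in the DEHP lineage, with a median log2 difference of 0.31. Over all 16454 genes, 7720 had higher means. The summed level of the lymphatic markers was 118 to 126 CPM in the control and 158 to 163 CPM in the DEHP ovaries. Much of that gap was Reln, with means of 38.7 CPM in the control and 64.6 CPM in the DEHP lineage (limma adjusted p 0.174). Mmrn1 and Prox1 had log2 differences of 0.31 and 0.4 (limma adjusted p 0.491 and 0.558). Flt4 was at 0.11 (limma adjusted p 0.746) and Lyve1, with overlap, at 0.05 (limma adjusted p 0.931). Whether the Reln level came from lymphatic cells was not tested. The lineages did not overlap in 4 of the 5 markers, beside 22.9% of all genes. Of 14 smooth muscle and pericyte markers, 13 had lower means, with a median of -0.28. The summed levels were 2260 to 2520 against 1850 to 2080 CPM. Over all 16454 genes, 8734 had lower means. The lineages did not overlap in 5 of the 14, and 5 had an unadjusted p under 0.05, beside 22.9% and 8.78% of all genes. Actg2, Cnn1, Myh11 and Acta2 had log2 differences of -0.56, -0.44, -0.33 and -0.27 (limma adjusted p 0.238, 0.333, 0.491 and 0.499). Pdgfrb was at -0.1 and Cspg4, the 1 marker with a higher mean, at 0.13. The part of vessel walls in these values was not tested. Over the same ovaries the blood endothelial set summed to 309 to 332 CPM in the control and 294 to 327 CPM in the DEHP lineage. The difference between these lists was not tested.

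**Figure D5:**
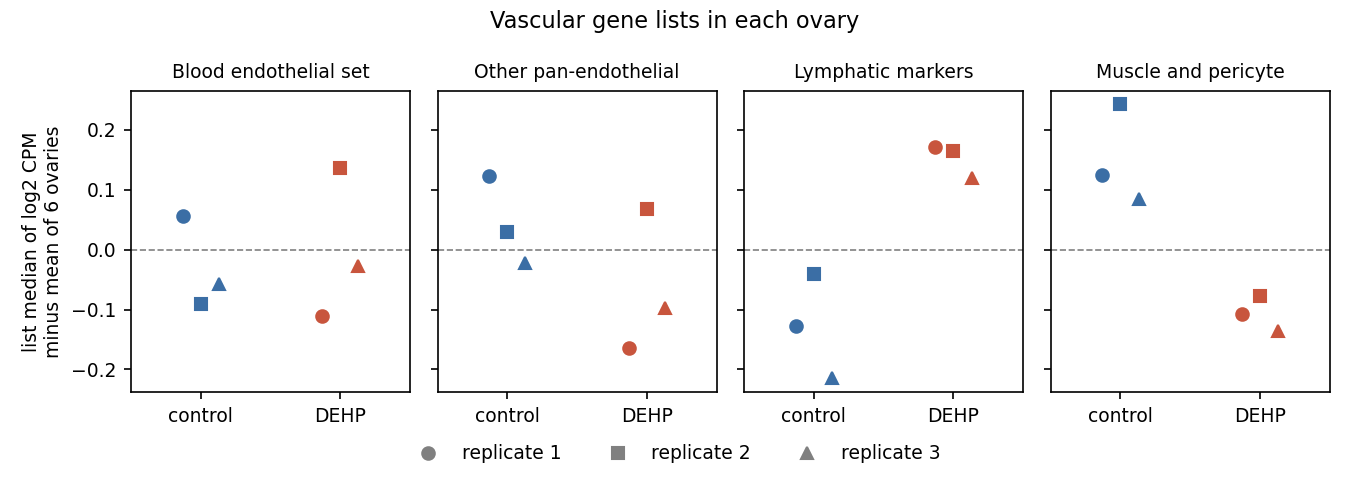
Median over the genes of each list of log2 CPM minus the mean of the 6 ovaries (vertical axis), by lineage, with 1 point per ovary and the shape giving the replicate. The lineages overlap for the blood endothelial set and the other pan-endothelial genes and lie apart for the lymphatic and the smooth muscle and pericyte lists.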

How the data were processed

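Whole ovaries were profiled by RNA sequencing, 3 per lineage, with a strand-marking mRNA kit read from one end on one lane, per the labels' protocols. The submitters' processing notes list STAR 2.5.3a, Trimmomatic 0.36, Subread 1.5.2 with featureCounts, and edgeR 3.20.5 under R 3.4.3, and the build GRCm38.p6, with no roles or settings. The prior count behind the log2 values is not stated. What the authors deposited is log2 CPM per ovary, with a surrogate variable removed per the table's name, beside a log2 fold change with its p-value and adjusted p-value from their own model. The deviations from the group means filled 3 directions where 6 ovaries in 2 groups would fill 4.

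From the deposited values, limma 3.58.1 in R 4.3.3 compared the lineages over all 16454 genes, two-sided, with a mean-variance trend, Benjamini-Hochberg adjustment and 0.05 as the threshold. Residual degrees of freedom were set to 3, 1 fewer than the design gives, for the removed direction. SDs are of values after that removal. The fit was tested on simulated data. GENCODE M21 gave exon lengths, overlaps and shared words. The 16 alternatives changed the degrees of freedom, scaling, pseudocount, filter, variance model, block or ovaries used. Members and lists were chosen with earlier results of these data known. Named were the measured members, from each list up to 4 genes with the lowest p, and the 5 genes with the most similar profile. Sox7, Erg, Fli1, Lyve1, Pdgfrb, Cspg4 and genes that overlap members are named outside that rule.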

Additional observations from a re-analysis of the deposited data

How the results depend on the processing

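None of the 8 measured genes was called under any of the 16 alternatives, and their median log2 difference stayed between -0.027 and 0.072. Signs changed for the 4 genes with the smallest differences. With 1 ovary left out, Egfl7 ranged from -0.041 to 0.065 (-0.014 without control replicate 2), Emcn from -0.013 to 0.149, Esam from -0.158 to 0.007 and Sox18 from -0.104 to 0.094, with 0.036 without DEHP replicate 2. With centring on other pan-endothelial genes, Esam was at 0.018 and Sox18 at 0.046. The count over all genes (7) was far less stable: it was 20 with 4 degrees of freedom, 3 with quantile normalization, 1 with no mean-variance trend, 26 with centring on other pan-endothelial genes, and 3 to 270 with 1 ovary left out. The lowest of these was without control replicate 2 (3), and the others that moved by over 1.5 times were those without control replicate 1 (27) and DEHP replicates 1 (270), 2 (43) or 3 (183). With the replicate block it was 83. In that fit, and without DEHP replicate 1 or 3, limma's prior degrees of freedom were infinite, so each gene's own spread did not enter the test. Deviations of same-numbered ovaries had correlations across genes of -0.327, -0.003 and -0.198. The removed direction had weights in both lineages and bears on these correlations, so they cannot show whether replicate numbers pair the ovaries. Because the depth in reads is unknown, no counting error could be set beside the levels of Sox17 and Plvap.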
